A study of Rattus norvegicus with 60 samples.

Results

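Rats given a single oral dose of 0.3 mg/kg deltamethrin, the lowest dose of that compound in the series, were compared with rats given corn oil alone. The comparison took the 8 samples whose titles name deltamethrin 0.3 mg/kg at 6 h (replicates 1 to 8) and the 12 whose titles name vehicle at 6 h (replicates 1 to 12), which are 20 of the 60 arrays of the series, and all 31042 probe sets. All rats were male Long-Evans, 62 to 64 days old by the labels, gavaged with 1 mL/kg of corn oil with or without the insecticide. Frontal cortex was collected 6 h later, and every rat's RNA went on its own Affymetrix rat expression array. The other arrays came from rats given 1 or 3 mg/kg deltamethrin or 1, 10 or 100 mg/kg permethrin, 8 rats per dose, and they entered the fit for their estimate of the spread between rats. Values are log2 RMA intensities, so a difference of 1 is a doubling, and arrays have no read depth: the number of rats limits the precision.

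Deltamethrin is a pyrethroid insecticide that carries an α-cyano group. Pyrethroids slow the closing of voltage-gated sodium channels, which prolongs sodium entry, makes neurons hyperexcitable and changes their firing rates. More strongly driven cortical neurons switch on immediate early genes such as Fos, Egr1 and Arc and, later, genes such as Bdnf. Stress hormones released by the adrenal gland act on the cortex through the glucocorticoid receptor and raise genes such as Fkbp5 and Sgk1.

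The arrays were uneven in ways that the labels do not name, though the study's methods describe 2 cohorts whose sizes per group match the sets given next. They formed 2 sets by replicate number, 24 arrays with vehicle replicates 1 to 6 and replicates 1 to 3 of each dose (the first array set) and the other 36 (the second), with 85 probe sets higher and 42 lower on every array of the first set than on any of the second. The first principal component, with 58.0% of the variance, put 14 arrays apart from the rest, among them vehicle replicates 4 and 5 and the 0.3 mg/kg rat numbered 1. Array medians lay between 7.09 and 7.20 in vehicle rats and between 7.11 and 7.19 at 0.3 mg/kg. A further unevenness was greatest in 1 rat, though not limited to it. Replicate 2 at 0.3 mg/kg had the lowest mean level of its group for 11 of 12 lists of cell type or region markers, by the widest margin for genes typical of striatum, and the highest for excitatory neuron markers. Its values are given beside the genes they bear on. Nothing in the labels says how tissue was divided between rats.

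No gene passed the test at 0.3 mg/kg. In limma, with p-values adjusted by Benjamini-Hochberg across the whole array, 0 of 31042 differed from vehicle at an adjusted p under 0.05 (0% called), and the smallest adjusted p was 1. At an unadjusted p under 0.05 there were 233 probe sets, 0.751% of those tested, with 111 higher (0.358%) and 122 lower (0.393%) after deltamethrin. If p-values are spread evenly, as they are when nothing differs, about 5% fall under 0.05, so the reported fit gave few small ones. With the array set and the first principal component in the fit, 4.97% of named genes (by their brightest probe sets) were at that level. Why the share was low in the reported fit was not tested. There were 0 probe sets in which all 8 dosed rats lay above, and 0 in which they all lay below, all 12 vehicle rats.

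The estimates were small and their intervals mostly narrow. The median log2 difference over all probe sets was -0.01, and only 80 (0.258%) had an estimate beyond 0.25 in either direction, 8 beyond 0.5 and 1 beyond 1. The 95% interval of the difference lay within 0.25 of 0 for 19333 probe sets (62.3%), within 0.5 for 28884 (93%) and within 1 for 31011 (99.9%). That interval reached a median of 0.16, and 0.46 at the 95th percentile, to either side of the estimate. A doubling of the measured intensity, or a fall of the same size, thus lay outside the interval for nearly all probe sets. The 11.2% of probe sets with a mean under 5 lie near background, where differences are compressed. For those the interval does not bound a change in the RNA itself.

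**Figure D1:**
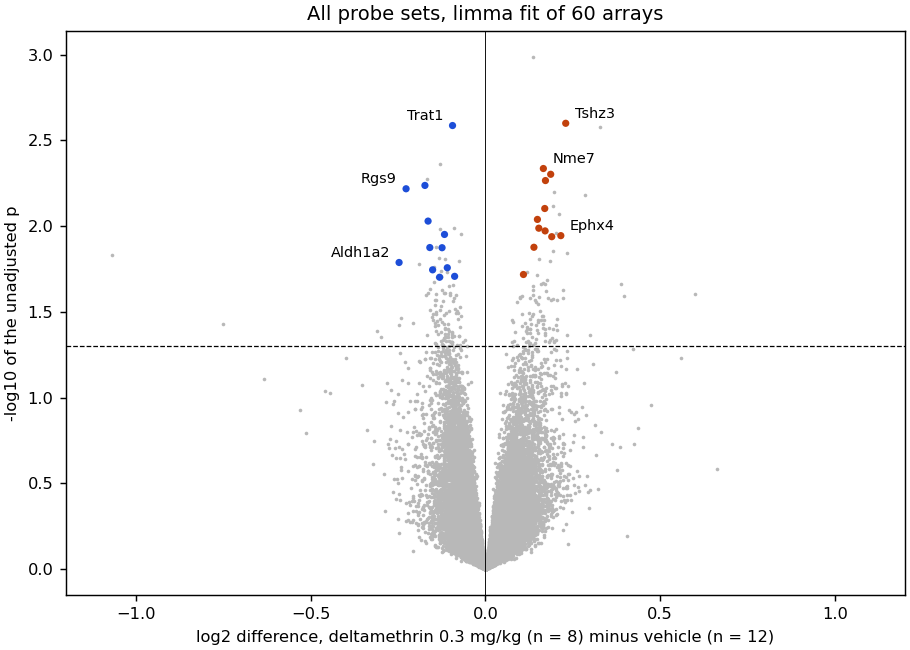
Each grey point is 1 of the 31042 probe sets, with its log2 difference between 0.3 mg/kg deltamethrin and vehicle on the x axis and the negative log10 of limma's unadjusted p on the y axis. The dashed line marks an unadjusted p of 0.05; the 12 named genes with the lowest p in each direction are coloured (orange higher, blue lower), and they lie within 0.25 of 0.

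The 12 named genes with the lowest p among those with higher estimates lay between 0.11 and 0.23 above vehicle on the log2 scale, or 7.83% to 17.3%. They had been picked by their p, so their order and size describe these arrays and test nothing further. Tshz3 (1377853_at), a zinc finger homeobox transcription factor, ranged from 8.08 to 8.67 in vehicle rats with a median of 8.34. At 0.3 mg/kg it ranged from 8.39 to 8.89 with a median of 8.56. All 8 dosed rats were above the vehicle mean, but 5 of them lay within the vehicle range. The difference in means was 0.23 (SE 0.07) with an adjusted p of 1 in limma. In the first array set it was 0.45 and in the second 0.06.

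Nme7 (1370446_at), a member of the nucleoside diphosphate kinase family, ran from 7.42 to 7.78 in vehicle rats (median 7.54) and from 7.60 to 7.92 after deltamethrin (median 7.74). Its estimate was 0.17 (SE 0.06), with values of 0.22 and 0.10 in the first and second array sets. Gfra2 (1369167_at), which encodes the receptor for the growth factor neurturin, ran from 9.60 to 9.92 in vehicle rats (median 9.79). In dosed rats it ran from 9.80 to 10.06 (median 9.92). Its estimate of 0.14 (SE 0.05) was nearly the same in both array sets, at 0.17 and 0.14. All 8 dosed rats were above the vehicle mean for Nme7 and for Gfra2, and the ranges of the groups overlapped for both.

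The remaining 9 in this direction had estimates between 0.11 and 0.22. They were Rab3ip, an activator of the small GTPase Rab8, Dtl, a substrate receptor of a ubiquitin ligase, Prmt8, a brain-enriched arginine methyltransferase, Epdr1, Lmtk2, the annexin gene Anxa4, the epoxide hydrolase family gene Ephx4, D430041D05Rikl and Skida1. Over the whole array 197 probe sets (0.635%) had all 8 dosed rats above the vehicle mean, and picking by p favours such genes. Of the 12 genes, 9 had all 8 dosed rats above the vehicle mean, and in all 12 the estimate was positive in both array sets. It was larger in the first array set, with its 3 dosed rats, than in the second for 11 of the 12. At 3 mg/kg the estimate against the same vehicle rats was smaller than at 0.3 mg/kg for all 12 genes, and at 1 mg/kg for 10. Since the genes were picked by their p at 0.3 mg/kg, smaller estimates at the other doses follow from the picking and say nothing of the dose. Without replicate 2 at 0.3 mg/kg, 11 of the 12 kept an unadjusted p under 0.05 and Ephx4 did not (0.16, p = 0.054 in limma).

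The 12 named genes with the lowest p among lower estimates had differences between -0.25 and -0.09, or -15.7% to -5.91%. The largest of these belonged to Aldh1a2 (1368003_at), an enzyme that makes retinoic acid and, in the adult brain, is found mainly in the meninges. It ran from 8.56 to 9.44 in vehicle rats (median 9.02) and from 8.23 to 9.01 after deltamethrin (median 8.82). The estimate was -0.25 (SE 0.10), and without replicate 2, the lowest rat, it was -0.17 with an unadjusted p of 0.0872 in limma.

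Rgs9 (1368500_a_at), a regulator of G protein signalling that is abundant in the striatum, ran from 8.70 to 9.30 in vehicle rats (median 9.03) and from 8.11 to 9.14 in dosed rats (median 8.85). Its estimate of -0.23 (SE 0.08) came from the first array set, where it was -0.55. In the second set the value was 0.02, the opposite sign. Replicate 2 held the value of 8.11, and the next rat stood at 8.66. Without replicate 2 the difference was -0.13 with an unadjusted p of 0.0661 in limma.

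Map3k7cl (1384425_at) did not depend on that rat. It ran from 6.10 to 6.54 in vehicle rats (median 6.40) and from 6.11 to 6.32 in dosed rats (median 6.20), with all 8 dosed rats below the vehicle mean and none below the lowest vehicle rat. The estimate was -0.17 (SE 0.06), against -0.18 and -0.15 in the 2 array sets. The collagen gene Col9a2, at -0.16 (SE 0.06), and the protease gene Casp6, at -0.15 (SE 0.06), also had all 8 dosed rats below the vehicle mean and estimates within 0.03 of each other in the 2 sets.

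Others in this direction were the homeobox gene Six3, the transcription factor gene Tfap2e, Ears2, which charges mitochondrial tRNA with glutamate, and the zinc transporter gene Slc39a5, at -0.16, -0.12, -0.12 and -0.13. The other three, Trat1, Ifng and Areg, encode a T cell adaptor, a cytokine and a growth factor. Their vehicle means of 4.27, 4.68 and 4.48 lay near the bottom of the measured scale, which begins at 3.75, and their estimates were -0.09, -0.11 and -0.09. Of the 12 genes, 6 had all 8 dosed rats below the vehicle mean, against 192 probe sets (0.619%) over the whole array. Without replicate 2, 9 of the 12 kept an unadjusted p under 0.05. The exceptions were Aldh1a2, Rgs9 and Slc39a5, the last with an estimate of -0.11 that was little changed. Against the same vehicle rats the estimates were closer to 0, or above it, for all 12 genes at 1 mg/kg and for all 12 at 3 mg/kg.

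**Figure D2:**
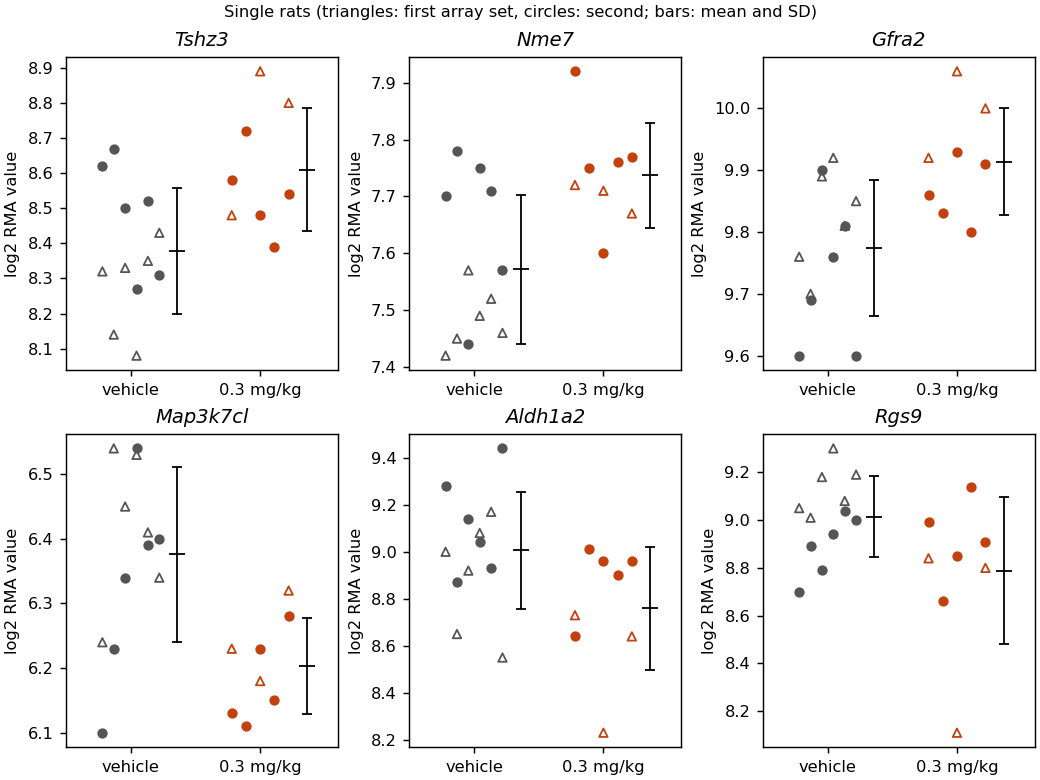
Log2 RMA values of single rats for 3 genes with higher and 3 with lower estimates, vehicle (grey, 12 rats) against 0.3 mg/kg deltamethrin (orange, 8 rats). Triangles are rats of the first array set, circles those of the second, and bars give the mean and SD; the groups overlap for all 6 genes, and 1 dosed rat at 8.11 stands below the others for Rgs9.

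Sodium channel genes, which encode the targets of pyrethroids, did not pass the test. Of 15 subunit genes listed 13 were measured, 0 reached even an unadjusted p under 0.05 (the share among the brightest probe sets of all 14217 named genes was 0.71%, with 0.408% higher and 0.302% lower), and their estimates ran from -0.05 to 0.13 with a median of 0.01. The α subunit gene Scn2a (1369662_at) ranged from 9.29 to 11.19 in vehicle rats (median 10.78) and from 10.02 to 11.31 in dosed rats (median 10.80), a difference of 0.13 (SE 0.27). Scn1a ranged from 8.78 to 10.38 in vehicle rats (median 10.06) and from 9.17 to 10.76 in dosed rats (median 10.00), with an estimate of 0.11 (SE 0.27). The spread of these genes between rats was wide, so their intervals of -0.42 to 0.68 and -0.43 to 0.65 admit changes that the tighter genes do not.

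Scn8a stood at 0.11 (SE 0.11) and Scn3a at -0.01 (SE 0.23). The auxiliary subunit gene Scn2b had the lowest p of the list. It ran from 11.07 to 11.72 in vehicle rats (median 11.33) and from 11.34 to 11.79 after deltamethrin (median 11.49), an estimate of 0.13 (SE 0.08) with an adjusted p of 1 in limma.

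Other genes of excitability had small estimates too. Of 34 potassium channel genes 1 was higher and 1 lower at an unadjusted p under 0.05, and the others were not past it. Kcnma1, the large-conductance calcium-activated channel, ran from 8.73 to 9.34 in vehicle rats (median 9.05) and from 9.02 to 9.38 after deltamethrin (median 9.29), an estimate of 0.20 (SE 0.09). Kcna3, a delayed rectifier, stood at -0.10 (SE 0.05). Vamp1, a vesicle protein of the release machinery, was the only 1 of 24 in its list past that level. It ran from 11.36 to 11.59 in vehicle rats (median 11.47) and from 11.38 to 12.00 in dosed rats (median 11.62), with an estimate of 0.15 (SE 0.06). Without replicate 2 none of the 3 had an unadjusted p under 0.05 in limma, but the estimates of Kcnma1 (0.18, p = 0.0675) and Kcna3 (-0.09, p = 0.0721) stayed about as large, while that of Vamp1 went to 0.10 (p = 0.114). With the array set and the first principal component in the fit, 7 of the 34 potassium channel genes were higher and 1 lower at an unadjusted p under 0.05, among them Kcnma1 at 0.19. In that fit the share over the brightest probe sets of all named genes was 4.97%, with 3.09% higher and 1.88% lower, and the smallest adjusted p over all probe sets was 0.963. It kept replicate 2, which held the highest mean level of the potassium channel list among the dosed rats, 8.97. Without that rat the median of the list in the reported fit went from 0.05 to 0.03.

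Among 17 calcium channel, 14 chloride channel or transporter, 12 ion pump and exchanger, 11 AMPA and NMDA receptor and 12 GABA receptor genes, 0 reached an unadjusted p under 0.05. The lowest p in each of these lists belonged to Cacng3, an auxiliary subunit of AMPA receptors that the calcium channel list holds (0.15, SE 0.08), to the chloride channel gene Ttyh1 (-0.16, SE 0.14), to the sodium-calcium exchanger gene Slc8a1 (0.21, SE 0.13), to the NMDA receptor subunit gene Grin2c (-0.13, SE 0.14) and to the GABA-B receptor gene Gabbr2 (0.08, SE 0.09). The list medians ran from -0.00 to 0.04, against -0.00167 over the brightest probe sets of all named genes.

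Immediate early genes, which neuronal firing switches on first, did not stand above vehicle as a group. Of 28 immediate early genes 0 had an unadjusted p under 0.05, 11 estimates lay above 0 and 17 below, and the median was -0.04. Fos is read by a pair of probe sets here. The brighter, 1371283_at, stands for Fos in the counts and median of the list. It ranged from 6.82 to 7.42 in vehicle rats (median 7.22) and from 7.00 to 7.35 after deltamethrin (median 7.24). Its estimate was 0.01 (SE 0.08). The other, 1375043_at, was much more variable, from 5.72 to 8.50 in vehicle rats (median 7.07) and from 5.71 to 8.87 in dosed rats (median 6.90), an estimate of -0.16 (SE 0.32).

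Egr1 ran from 11.04 to 12.10 in vehicle rats (median 11.28) and from 10.80 to 11.88 in dosed rats (median 11.22), with an estimate of -0.11 (SE 0.14). Arc, whose product shapes the strength of synapses, ran from 8.41 to 11.31 in vehicle rats (median 9.16) and from 8.32 to 10.43 in dosed rats (median 9.04). Its estimate of -0.29 (SE 0.27) was the lowest of the list. A single dosed rat, replicate 7, was above the vehicle mean for Arc, as it was the highest of its group for the variable Fos probe set. The vehicle mean of Arc, 9.37, lay above the vehicle median. Against the same vehicle rats Arc stood at -0.57 at 1 mg/kg, -0.54 at 3 mg/kg and -0.60 after 1 mg/kg permethrin (SE 0.27 each). Standing below this mean was thus not particular to 0.3 mg/kg. Klf2 had the lowest p of the list, at -0.16 (SE 0.09). The first array set gave -0.85 for Arc, -0.44 for Junb and -0.43 for Nr4a1, while the second gave 0.22, 0.01 and 0.05.

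Of 20 late activity-regulated genes 17 estimates lay above 0 and 3 below, and the median of 0.10 was the highest of the 25 pathway lists, but 0 of the 20 had an unadjusted p under 0.05. With the array set and the first principal component in the fit the median was 0.09 and 6 of the 20 were higher at that level, against 3.09% of all named genes: Bdnf at 0.24 (1368677_at, limma's unadjusted p = 0.00361), the scaffold gene Homer1, Nrn1, Vgf, Camk1g and somatostatin, Sst, at 0.12 to 0.16. Homer1, Nrn1, Vgf and Sst were named after their values were seen, and none of the 20 passed an adjusted p under 0.05. The mean level of the list was above the vehicle mean in 7 of 8 dosed rats. It ran from 9.36 to 9.68 in vehicle rats and from 9.50 to 9.72 in dosed rats. Bdnf, a neuronal growth factor, ran from 6.11 to 7.07 in vehicle rats (median 6.63) and from 6.37 to 7.45 after deltamethrin (median 6.81) by probe set 1368677_at, an estimate of 0.22 (SE 0.14). By 1368678_at the estimate was 0.00 (SE 0.04). Crh, corticotropin-releasing hormone, had the lowest p of the list, at 0.17 (SE 0.10). Replicate 2 held the highest mean level, 9.72, and without it the median of the list was 0.07.

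**Figure D3:**
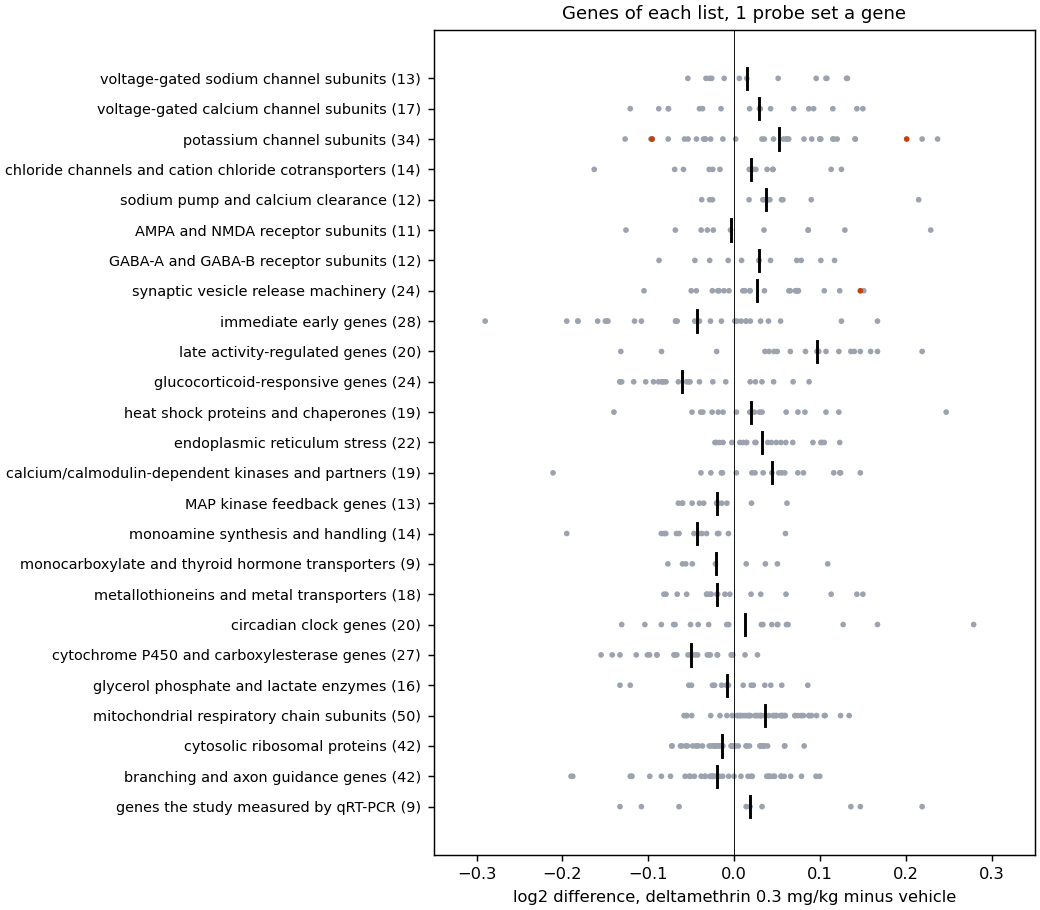
Log2 difference between 0.3 mg/kg deltamethrin and vehicle for every measured gene of the 25 pathway lists, 1 point per gene by its brightest probe set, with the number of genes in brackets and a black bar at the median of the list. Orange points have an unadjusted p under 0.05 in limma: Kcnma1, Kcna3 and Vamp1; list medians lie between -0.06 and 0.10.

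Over all 511 genes of the 25 pathway lists, 3 had an unadjusted p under 0.05 (0.587%), close to the 0.71% of all named genes. With the array set and the first principal component in the fit there were 41 (8.02%, against 4.97% of all named genes), 32 higher and 9 lower, with 0 at an adjusted p under 0.05. The lists were written with earlier results of these data known and include the study's qRT-PCR genes, so these shares are descriptions. Heat shock and chaperone genes had a median of 0.02 over 19 genes, and the lowest p among them was that of Ahsa1, a partner of HSP90 (0.11, SE 0.06). Hspb1, a small heat shock protein, ran from 7.17 to 8.47 in vehicle rats (median 7.59) and from 7.21 to 7.94 in dosed rats (median 7.76), an estimate of 0.03 (SE 0.15). Endoplasmic reticulum stress genes had a median of 0.03, with Ddit3 at 0.12 (SE 0.07), and calcium/calmodulin-dependent kinases and their partners a median of 0.04.

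Metabolic, clock and hormone-handling genes gave medians of the same small size. Cytochrome P450 and carboxylesterase genes, whose products break down pyrethroids in the liver, had a median of -0.05, with 25 of 27 estimates below 0 and Cyp4f6 at -0.14 (SE 0.08). Respiratory chain genes had a median of 0.04, with 42 of 50 estimates above 0 and Ndufb5 at 0.09 (SE 0.06), and ribosomal protein genes a median of -0.01, with Rpl7a at -0.06 (SE 0.04). Clock genes had a median of 0.01 (Hlf 0.17, SE 0.10), monoamine genes -0.04 (Th -0.20, SE 0.12), branching and axon guidance genes -0.02 (Bmp4 -0.19, SE 0.13), and MAP kinase feedback genes -0.02 (Errfi1 -0.07, SE 0.09). Transporters of monocarboxylates and thyroid hormone had a median of -0.02 (Slc16a6 0.11, SE 0.09), metallothioneins and metal transporters -0.02 (Slc30a5 0.15, SE 0.10), and glycerol phosphate and lactate enzymes -0.01 (Hk2 -0.12, SE 0.09). Over the brightest probe sets of all named genes 48.8% of estimates lay above 0, the share to set beside the counts of signs in each list. Members of one list share regulation and array effects, so a run of estimates on 1 side of 0 is a description.

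The stress hormone genes had a median just below vehicle at this dose and just above it at the higher doses. Of 24 glucocorticoid-responsive genes 18 estimates were below 0 and 6 above at 0.3 mg/kg, with a median of -0.06, and the median was 0.06 at both 1 and 3 mg/kg, all against the same vehicle rats. The lowest p at 0.3 mg/kg was that of the cell cycle inhibitor gene Cdkn1a (-0.09, SE 0.09), and 0 genes had an unadjusted p under 0.05. Gpd1 and Fkbp5 of this list were among the genes the study went on to measure by qRT-PCR.

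Gpd1, the cytosolic glycerol-3-phosphate dehydrogenase, ranged by 1371363_at from 8.37 to 9.95 in vehicle rats (median 8.85) and from 8.22 to 9.26 at 0.3 mg/kg (median 8.87). It ranged from 8.73 to 10.04 at 1 mg/kg (median 9.54) and from 9.21 to 10.63 at 3 mg/kg (median 9.92). At 0.3 mg/kg the dosed rats lay within the vehicle range but for 1 below it, with an estimate of -0.13 (SE 0.20) and an interval of -0.54 to 0.27. The second Gpd1 probe set, 1369560_at, gave -0.14 (SE 0.17).

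The direct comparison of 3 with 0.3 mg/kg gave Gpd1 a difference of 1.13 (SE 0.22) with an adjusted p of 0.131 in limma. Fitted with the first principal component as a covariate the adjusted p was 0.00283, with the 2 sets of arrays on that component as a block 0.0235, and with the array set as a block 0.079. The direct comparison thus changed sides of the threshold with the covariates. Between 1 and 0.3 mg/kg the difference was 0.64 (SE 0.22), with an adjusted p of 1.

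Fkbp5, a co-chaperone of the glucocorticoid receptor, ranged by 1388901_at from 7.97 to 8.92 in vehicle rats (median 8.47) and from 8.24 to 8.66 at 0.3 mg/kg (median 8.53), all within the vehicle range. It ranged from 8.52 to 9.05 at 1 mg/kg (median 8.67) and from 8.58 to 9.30 at 3 mg/kg (median 8.97). The estimate at 0.3 mg/kg was 0.02 (SE 0.09) against 0.48 (SE 0.10) for 3 minus 0.3 mg/kg, the latter with an adjusted p of 0.264 in limma. That p was 0.079 with the array set as a block and 0.00856 with the block and the first component together.

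Camk1g, a calcium/calmodulin-dependent kinase, was the 1 gene measured by qRT-PCR in the study for which all 8 rats at 0.3 mg/kg were above the vehicle mean (0.635% of all probe sets were). By 1391229_at it ran from 8.86 to 9.42 in vehicle rats (median 9.19) and from 9.19 to 9.47 after 0.3 mg/kg (median 9.30). The estimate was 0.15 (SE 0.10), with an interval of -0.05 to 0.34 and an adjusted p of 1 in limma. The estimates against vehicle were 0.33 at 1 mg/kg and 0.39 at 3 mg/kg. The dimmer probe set 1377518_at gave 0.09 (SE 0.16) at 0.3 mg/kg, with 5 of 8 rats above the vehicle mean.

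Ddc, the decarboxylase of dopamine and serotonin synthesis, ran by 1368064_a_at from 7.38 to 7.81 in vehicle rats (median 7.59) and from 7.23 to 7.70 at 0.3 mg/kg (median 7.60), an estimate of -0.06 (SE 0.08). It was split evenly, with 4 dosed rats above and 4 below the vehicle mean. By 1375317_at the estimate was -0.08 (SE 0.10). Rassf5, a Ras effector, ran from 8.96 to 9.32 in vehicle rats (median 9.12) and from 8.94 to 9.49 after deltamethrin (median 9.26), with an estimate of 0.14 (SE 0.08), which was 0.38 in the first array set and -0.02 in the second.

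**Figure D4:**
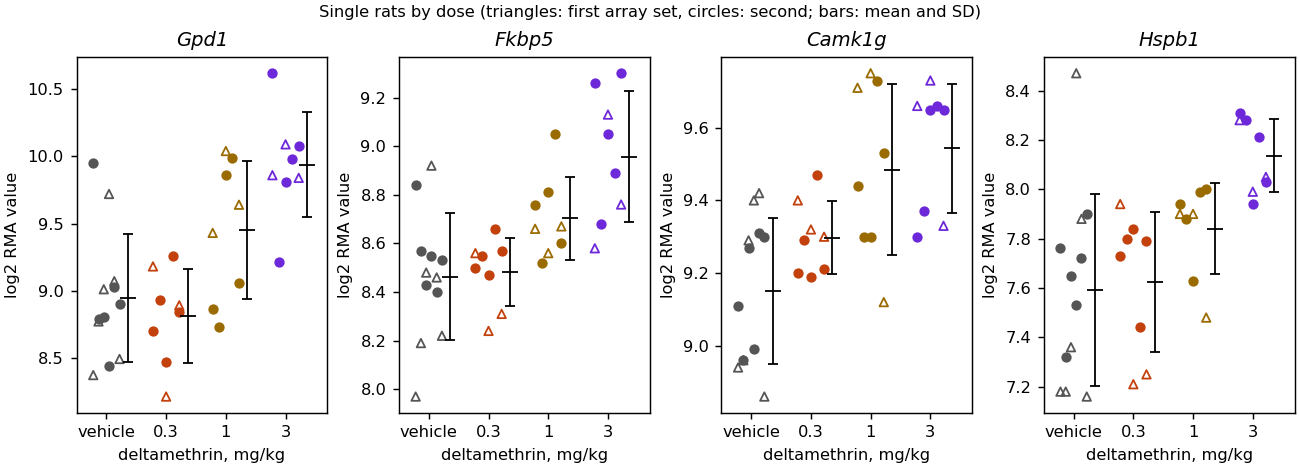
Log2 RMA values of single rats for Gpd1 (1371363_at), Fkbp5 (1388901_at), Camk1g (1391229_at) and Hspb1 by deltamethrin dose, with 12 vehicle rats and 8 rats at each of 0.3, 1 and 3 mg/kg. Triangles are the first array set, circles the second, and bars the mean and SD. At 0.3 mg/kg the values of Gpd1, Fkbp5 and Hspb1 lie within the vehicle range, but for 1 rat below it for Gpd1. None reaches the top of that range. Gpd1 medians are 8.87, 9.54 and 9.92 over the 3 doses.

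Over all probe sets the doses of deltamethrin could not be told apart by the test. Between 1 and 0.3 mg/kg 0 probe sets passed an adjusted p under 0.05 in limma, and 325 (1.05%) had an unadjusted p under 0.05. Between 3 and 0.3 mg/kg 0 passed and 224 (0.722%) had an unadjusted p under 0.05, while 1 to 5 passed in fits with the first principal component: both Gpd1 probe sets, Fkbp5, the small heat shock gene Cryab and a probe set without a gene symbol. Mt2A, a metallothionein gene with the third lowest p among named genes there, stood 0.46 higher at 3 than at 0.3 mg/kg (SE 0.13) with an adjusted p of 1, and at -0.08 (SE 0.11) between 0.3 mg/kg and vehicle. Against permethrin at 1 mg/kg, a pyrethroid without the α-cyano group and at a different dose, 0 passed and 747 (2.41%) had an unadjusted p under 0.05, with 470 higher (1.51%) and 277 lower (0.892%) after deltamethrin. The smallest adjusted p in that comparison was 0.98.

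Markers of cell types and neighbouring regions checked what the tissue held. Markers of cortical excitatory neurons were bright, with Nrgn at 13.2 and the vesicular glutamate transporter gene Slc17a7 at 12.6 in vehicle rats, and so were the inhibitory neuron genes Cck, at 12.8, and Gad1, at 11.9. So were genes that cortex has little of, such as the striatal Penk at 12.3 and Ppp1r1b at 11.3. In bulk tissue fewer cells of a type and less RNA per cell cannot be told apart. Of 126 marker genes in 12 lists, 0 were higher and 5 lower at 0.3 mg/kg at an unadjusted p under 0.05 (3.97%, against 0.71% of all named genes). These were Rgs9 and Doc2g, from the striatal and olfactory lists, the meningeal Igf2, the prolactin receptor gene Prlr, which choroid plexus holds, and the endothelial drug pump gene Abcb1a.

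Replicate 2 held the lowest values of many of these genes. The mean level of 12 striatal markers ranged from 9.24 to 10.01 in vehicle rats and from 8.50 to 9.70 in dosed rats. Replicate 2 held the 8.50 and the next dosed rat stood at 9.14. Drd1, the dopamine receptor of the direct pathway, was at 6.82 in this rat against 8.69 to 9.54 in the other 7 and 8.89 to 9.67 in vehicle rats. Drd2 was at 7.53 against 8.56 to 9.31, and the adenosine receptor gene Adora2a at 6.34 against 7.79 to 8.85. Cdhr1, a cadherin of olfactory bulb output neurons, was at 5.67 in replicate 2, 7.10 in replicate 3 and 8.77 or above in the other 6. Low values were not confined to replicate 2. For Rgs9, Drd1, Drd2, Adora2a, Penk, Cdhr1 and Igf2, 2 dosed rats lay below every vehicle rat. The number was 4 for Doc2g, and 1 for Prlr and for Abcb1a. Leaving out replicate 2 thus keeps other low rats in.

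Without replicate 2 the median of the striatal list went from -0.14 to -0.04, and the estimates went from -0.25 to 0.07 for Drd1, from -0.32 to -0.05 for Adora2a and from -0.53 to -0.11 for Cdhr1. Of the 5 markers with an unadjusted p under 0.05, Rgs9 went from -0.23 to -0.13 and Igf2 from -0.24 to -0.14 without the rat. Doc2g went from -0.25 to -0.19 and Prlr from -0.14 to -0.12, a smaller change, and Abcb1a stood at -0.33. In limma the unadjusted p without the rat was under 0.05 for Abcb1a (0.0377) and over it for the other 4. With the array set and the first principal component in the fit of all rats, 18 of the 126 marker genes had an unadjusted p under 0.05 (14.3%, against 4.97% of all named genes), 5 higher and 13 lower. Abcb1a ran from 6.85 to 8.26 in vehicle rats (median 7.23) and from 6.65 to 7.49 in dosed rats (median 7.17), an estimate of -0.31 (SE 0.15). It was not particular to this dose. Against the same vehicle rats it stood at -0.33 at 1 mg/kg and -0.35 at 3 mg/kg (SE 0.15 each), and at -0.16 (SE 0.15) after 1 mg/kg permethrin. The difference from 0.3 mg/kg was -0.024 at 1 mg/kg and -0.045 at 3 mg/kg (SE 0.16 each). The part of these markers in the differences of other genes was not tested.

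**Figure D5:**
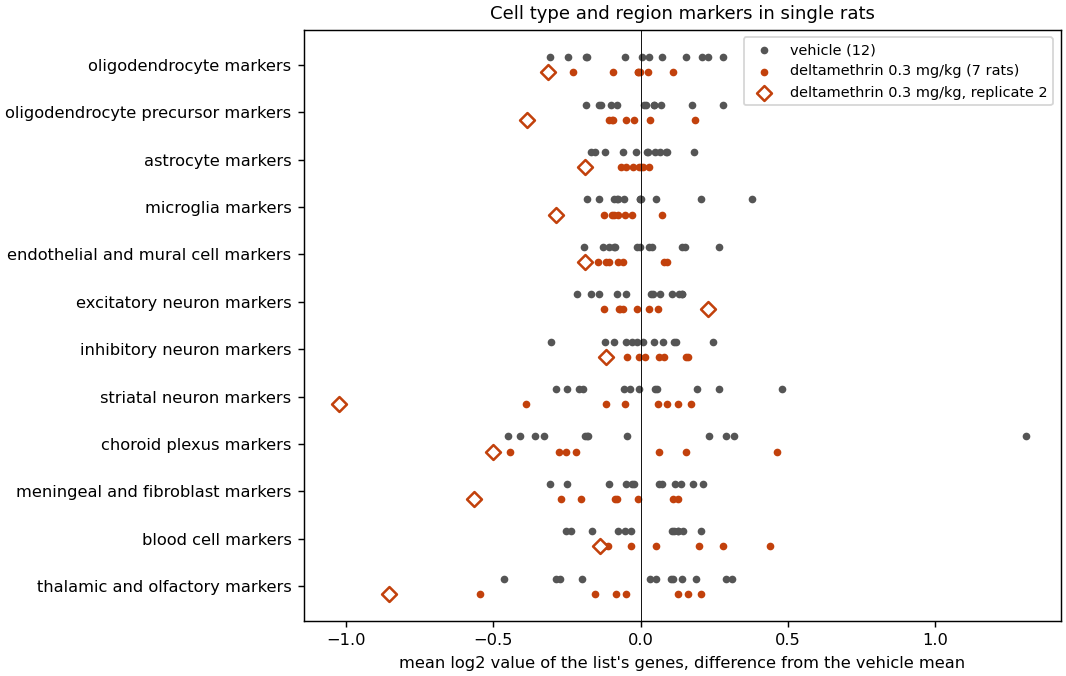
Mean log2 value of the genes of each marker list in single rats, as the difference from the vehicle mean, for 12 vehicle rats (grey), 7 rats at 0.3 mg/kg deltamethrin (orange) and replicate 2 of that dose (open diamond). Replicate 2 stands at -1.03 for striatal markers, -0.85 for thalamic and olfactory markers and -0.57 for meningeal markers, and at 0.23 for excitatory neuron markers.

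Every other marker list had a median within 0.12 of 0. Medians were -0.07 for oligodendrocytes, -0.04 for their precursors, -0.04 for astrocytes, -0.09 for microglia, -0.05 for vessel cells, 0.04 for excitatory and 0.05 for inhibitory neurons, -0.10 for choroid plexus, -0.12 for meninges, 0.07 for blood cells and -0.10 for thalamic and olfactory genes. The choroid plexus list was the most variable among vehicle rats, with mean levels from 6.90 to 8.66. Oligodendrocyte genes such as Mbp, the myelin basic protein gene, stood at 13.8 in vehicle and 13.7 in dosed rats.

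The rats at 0.3 mg/kg were also the most alike of the 7 groups. The median SD of a probe set between rats was 0.146 at 0.3 mg/kg and 0.179 in vehicle rats, and between 0.165 and 0.196 in the other 5 groups. At 0.3 mg/kg 1 of 8 rats lay high on the first principal component, against 2 or 3 of 8 at the other doses and 2 of 12 among vehicle rats. Without the rats high on that component the median SD was 0.136 at 0.3 mg/kg, 0.151 in vehicle rats, and from 0.112 to 0.15 in the rest, so 0.3 mg/kg no longer had the smallest. No test was made of these spreads.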

How the data were processed

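The authors deposited one table of log2 intensities, made with RMA in the RMAExpress program (background correction, quantile normalization and summary of probes per probe set), for 60 arrays and 31042 probe sets. All 60 columns matched a sample title. Symbols came from the platform annotation: 20826 probe sets had 1 symbol, 436 several and 9780 none, and 14217 genes were named. Each gene stands for its brightest probe set (mean over all arrays) unless another is given.

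One limma fit (version 3.58.1, R 4.3.3) with a mean per group over all 60 arrays, moderated by empirical Bayes and adjusted by Benjamini-Hochberg across the whole array, tested 0.3 mg/kg against vehicle, and 1 mg/kg, 3 mg/kg and 1 mg/kg permethrin against it, at an adjusted p under 0.05. The step was tested on simulated data. Named genes were the 12 with the lowest p in each direction (no provisional symbols), the 9 genes the study measured by qRT-PCR, and the list members with an unadjusted p under 0.05 or else the lowest p, at most 3 in lists over 30 genes. Sodium channel α subunits, Arc, Nr4a1, Junb, Mt2A, Cryab, Homer1, Nrn1, Vgf, Sst, Oxt, Avp and single marker genes were named outside this rule. Of 759 list entries 657 had a probe set, in 25 pathway and 12 marker lists; lists were described by counts and medians, without set tests. The members and lists were chosen with earlier results of these data known. The 2 array sets were read from replicate numbers after seeing the data, and match in size the study's 2 cohorts, which the labels do not name; a probe set with 2 clear levels split all 60 arrays the same way. Nothing in the labels says more of how rats were replicated than that each sample is 1 rat. Python 3.11.15, numpy 2.4.6, pandas 2.3.3 and matplotlib 3.10.9 made summaries and figures. Alternatives changed covariates, blocks, arrays, scale, normalization, filters and the test (Dunnett, mvtnorm 1.3.3). The qRT-PCR measurements were not analysed here.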

Additional observations from a re-analysis of the deposited data

Results flagged for a closer look

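Among the 8 rats at 0.3 mg/kg, 12 of the values tested had 1 rat set far from the other 7: 3 of 63 probe sets named by the rule, 6 of 20 named outside it and 3 of 37 list means. Chance flags about 1 in 20 values, but that rate bears on nothing for the 20, several of which were named for the values of replicate 2. Genes and lists also overlap.

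Replicate 2 held 8 of the 12, each as the lowest rat. It stood at 8.11 for Rgs9 (others 8.66 to 9.14), 6.34 for Adora2a (others 7.79 to 8.85), 6.82 for Drd1 (others 8.69 to 9.54), 7.53 for Drd2 (others 8.56 to 9.31) and 10.19 for Igf2 (others 10.78 to 11.30). Its list means were 8.50 for striatal neuron markers (others 9.14 to 9.70), 10.68 for astrocyte markers (others 10.81 to 10.90) and 7.80 for branching and axon guidance genes (others 7.90 to 7.98).

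Replicate 1 was the highest for Scn2b at 11.79 (others 11.34 to 11.52) and for Cryab at 10.14 (others 9.24 to 9.55). Replicate 7 was the highest for Arc at 10.43 (others 8.32 to 9.30) and the lowest for Ddit3 at 7.84 (others 8.13 to 8.39).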

How the results depend on the processing

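No setting tried gave a probe set at an adjusted p under 0.05 between 0.3 mg/kg and vehicle, and none of the 962 recomputed list medians moved by more than the spread between rats. That spread was larger than the size of most list medians, so a median could cross 0 without counting as moved. The sodium channel median went from 0.01 to -0.02 with the array set as a block. The calcium channel median went from 0.03 to -0.02 without replicate 2. The number at an unadjusted p under 0.05, 233 in the reported fit, was 474 with the 2 sets of arrays on the first principal component as a block, 724 with that component as a covariate, 465 with the array set as a block and 1437 with both. It was 935 with array weights, 471 within the first array set, 92 over the brighter probe sets (those above the median), 144 without the 3 arrays high on the component and 88 by Dunnett's test. Leaving out 1 rat gave 163 to 430, the lowest without vehicle replicate 12 and the highest without vehicle replicate 7. The causes were not tested. The count over the brighter probe sets also comes from fewer probe sets. Rgs9 turned from -0.23 to 0.016 within the second array set.

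Between 1 and 0.3 mg/kg the number at an unadjusted p under 0.05 (325) was 548 with the 16 arrays alone, 594 with the component, 144 in the brighter probe sets, 560 with the array set and 895 with array set and component. Between 3 and 0.3 mg/kg (224) it was 426 with the 2-set block, 608, 97, 383 and 854 in the order component, brighter probe sets, array set, both, and 1, 4 and 5 probe sets passed an adjusted p under 0.05 with the 2-set block, the component and both. Against permethrin at 1 mg/kg (747) it was 415 with the 16 arrays alone, 1256, 1526, 440, 1244 and 1789 in the order 2-set block, component, brighter probe sets, array set, both.

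Replicate numbers do not pair the rats: deviations of same-numbered vehicle and 0.3 mg/kg arrays correlated between -0.518 and 0.587, with 2 of 8 over 0.1. With the replicate number as a block 892 probe sets had an unadjusted p under 0.05 against vehicle, 493 between 1 and 0.3 mg/kg and 347 between 3 and 0.3 mg/kg, with 0 at an adjusted p under 0.05. A fit within each of the 2 sets on the first component was not run, since 1 array of 0.3 mg/kg lies in the higher one. Probe sets with a mean under 5 (11.2%) lie near background, where differences are compressed.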

Other observations

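Apart from Cdhr1, the lowest estimates among named genes, chosen here after their values were seen, belonged to the hypothalamic hormones oxytocin and vasopressin. Oxt ran from 7.59 to 11.09 in vehicle rats (median 8.57) and from 7.66 to 9.06 at 0.3 mg/kg (median 8.60), an estimate of -0.51 (SE 0.36). Avp ran from 7.58 to 9.01 in vehicle rats (median 7.67) and from 7.33 to 7.93 at 0.3 mg/kg (median 7.55), an estimate of -0.46 (SE 0.27). Vehicle replicates 3, 4 and 5 held the 3 highest values of each gene, at 9.96, 11.09 and 10.05 for Oxt and 9.01, 8.88 and 8.96 for Avp. In the second array set, which holds none of those 3 rats, the estimates were -0.07 for Oxt and -0.17 for Avp. Neither had an unadjusted p under 0.05, and Avp also stood 1.06 below its level after 1 mg/kg permethrin (SE 0.29), with an adjusted p of 0.98 in limma.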
